A study of Mus musculus with 4 samples.

Results

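The genes described here encode the proteasome, the protease complex that degrades ubiquitin-tagged proteins, together with its activators, its inhibitor and its assembly chaperones. They were chosen by symbol, as genes named Psma, Psmb, Psmc, Psmd, Psme, Psmf or Psmg with a number, without the immunoproteasome subunits Psmb8, Psmb9 and Psmb10. The rule found 46 of the 50600 gene identifiers measured. The samples were mouse Th17 cells (T-helper 17 cells, CD4 T cells that make interleukin 17), whose RNA was sequenced in 4 libraries forming 1 group with no control or treated samples. All were primary cells of strain C57BL/6NJ, differentiated by a linked protocol, with sex recorded as not collected and age as unknown. The labels number the libraries as biological replicates 1 to 4 and give all of them 1 donor identifier, without naming separate animals or cultures, so the spread behind each SD and p-value is that of these libraries alone.

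The 20S core of the proteasome is a barrel whose outer rings of alpha subunits gate the entrance and whose inner rings of beta subunits hold the protease sites. A regulatory particle caps the barrel, recognises and removes ubiquitin, and unfolds the substrate with a ring of ATPases. Activators such as PA28 can open the barrel in its place, and in lymphocytes and other interferon-responsive cells the catalytic beta subunits can be replaced by immunoproteasome counterparts, which alter the peptides that are cut for MHC class I presentation.

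Total counts were 25847970 to 40652146 per library. The T cell genes Cd3d, Cd3e, Cd3g, Trac and Cd4 were all present (5 of 5 at 1 TPM or more, summed level 4759 to 5101 TPM). Of 6 Th17 markers, 4 reached a mean of 1 TPM (summed level 24.4 to 38.3 TPM), while Il23r and Ccr6 rested on 11 and 15 counts. None of 6 myeloid markers, 1 of 5 B cell markers (Cd79a, 1.15 ± 0.516 TPM) and 1 of 4 CD8 and NK markers (Cd8b1, 27.0 ± 4.86 TPM) did so, with Ms4a1, Klrb1c and Ncr1 at 0 counts. The summed level was 0.783 to 1.48 TPM for the myeloid list, 0.392 to 1.88 TPM for the B cell list and 21.2 to 31.2 TPM for the CD8 and NK list. The libraries also fell into pairs that the labels do not describe: the X-inactivation transcript Xist stood at 0.791 and 0.602 TPM in replicates 1 and 2 and at 142 and 76.5 TPM in replicates 3 and 4, and the Y-linked gene Ddx3y stood at 305, 213, 0.914 and 1.39 TPM in that order. The 4 libraries therefore differed in sex-linked transcripts although they share 1 donor identifier, so the spread over all 4 is not technical alone, while that within a pair may be.

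Proteasome genes were expressed broadly and at high levels. Levels are given as TPM, counts divided by gene length and scaled to the same total in each library, as mean ± SD over n = 4 libraries. The mean reached 1 TPM for 44 of the 46. The median gene stood at 97.7 TPM, beside 19.0 TPM over all 11857 genes of at least 1 TPM and 24.9 TPM over the 9831 protein coding ones. Their TPM summed to 6099, 5669, 5525 and 6319 in replicates 1 to 4, and they took 0.376% ± 0.0289 of all counts. In bulk RNA, fewer cells of a type and less RNA per cell cannot be told apart. The order of the genes was much the same in each library, with a Spearman correlation of 0.993 to 0.997 over the 46 genes in the 6 library pairs, given as a description because the genes are not independent. Among the 45 pairs of neighbours in the ranking by mean level, 21 kept their order in all 4 libraries and 24 did not, so many adjacent genes cannot be ranked apart.

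**Figure D1:**
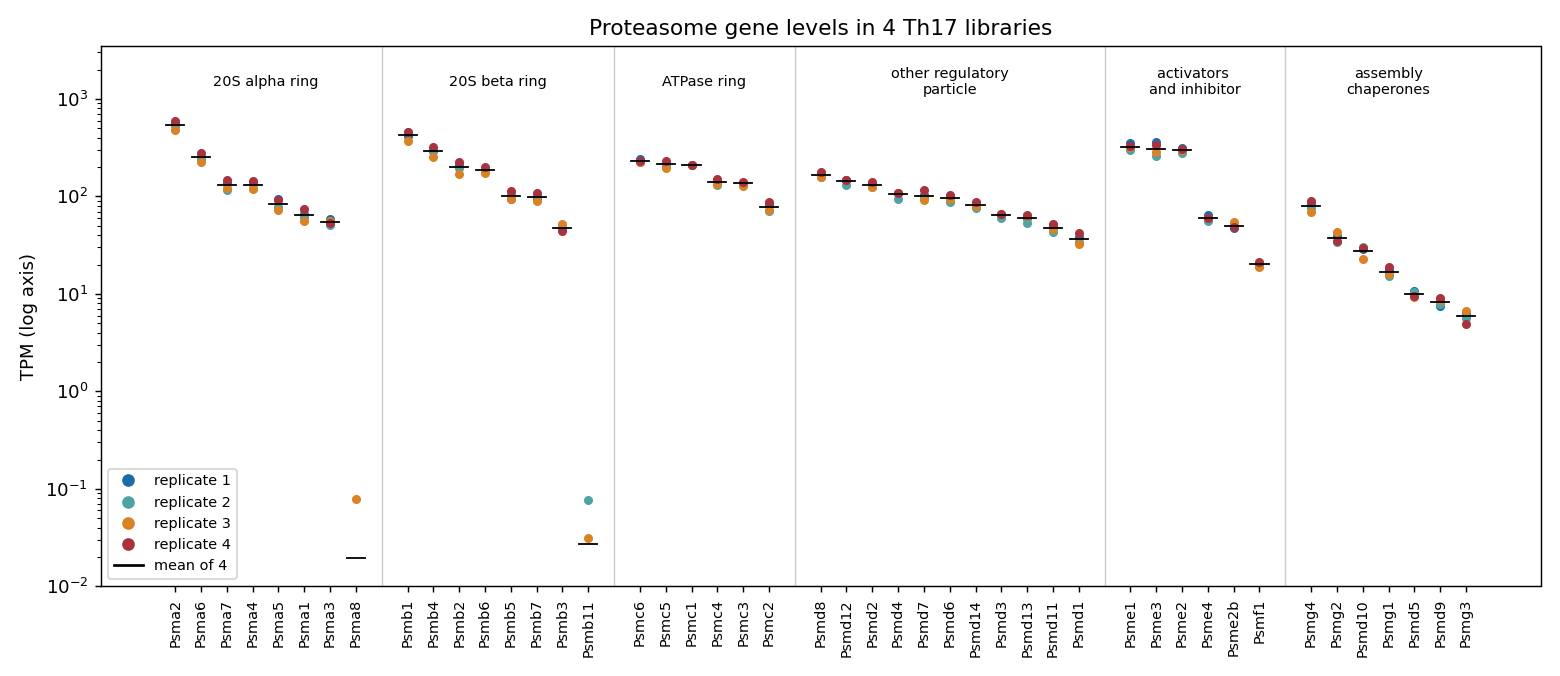
Level of each proteasome gene in TPM (log axis) in the 4 Th17 libraries, grouped by role. Points are libraries and bars are means of 4, and libraries at 0 TPM are not drawn (Psma8 has 1 point and Psmb11 has 2). The 2 genes below 1 TPM stand apart from the other 44, and the assembly chaperones have the lowest median of the 6 roles.

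The 20S alpha ring had 8 genes, of which 7 were at 1 TPM or more. Psma2, an alpha ring subunit, was the most highly expressed of all 46 genes, at 553, 533, 481 and 597 TPM in replicates 1 to 4 (541 ± 48.4 TPM). Psma6, another alpha subunit, followed at 255, 244, 227 and 279 TPM (251 ± 21.9 TPM). Psma3, the lowest of the 7 expressed alpha genes, was measured at 59.0, 50.6, 56.4 and 53.6 TPM (54.9 ± 3.605 TPM). The expressed genes of this ring thus spanned 9.85-fold. The role's median log2(TPM + 1) was 6.71 ± 0.16 over all 8 genes and 7.02 ± 0.15 over the 7 expressed ones.

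Psma8 encodes a germ cell counterpart of the alpha subunit Psma7. It had 1 count in all 4 libraries together, from replicate 3, a level of 0.0780 TPM there. Psma7 stood at 139, 117, 122 and 148 TPM (131 ± 14.3 TPM). Psma7 exceeded Psma8 by 7.01 ± 0.19 in log2(TPM + 1), in 4 of 4 libraries. This difference and the other gene pairs were tested within libraries by flipping signs in an exact permutation test (two-sided), whose smallest possible p with 4 libraries is 0.125 (adjusted p = 0.15 over 12 pairs), so no pair could pass 0.05 and the sizes carry the comparison. Here p was 0.125. Of 4 germ cell markers of the testis none reached 1 TPM (summed level 0.1002 to 1.28 TPM), and the sperm protamine gene Prm1 had 0 counts.

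The 20S beta ring also had 8 genes, 7 of them at 1 TPM or more. Psmb1, a beta subunit without protease activity, was highest at 420, 453, 368 and 456 TPM (424 ± 40.9 TPM). Psmb4, likewise a non-catalytic beta subunit, stood at 290, 297, 252 and 325 TPM (291 ± 29.9 TPM), and Psmb3 was lowest of the 7 at 47.0, 47.6, 52.2 and 44.3 TPM. In TPM Psmb1 and Psmb4 were lowest in replicate 3, whereas Psmb3 was highest there. In log2 CPM, the count relative to a scaled library size, Psmb3 was highest in replicate 2 (5.05, against 5.02 in replicate 3). The median log2(TPM + 1) of the role was 7.11 ± 0.11, and 7.52 ± 0.10 over the 7 expressed genes. Psmb11, the catalytic subunit of the thymoproteasome of thymic cortical epithelium, had 5 counts in all, at 0, 0.0770, 0.0311 and 0 TPM. Of the thymic epithelial markers Foxn1, Krt5 and Krt8 had 0 counts, and Epcam was measured at 6.71 ± 1.27 TPM (summed level of the 4 markers 5.76 to 8.56 TPM). Psmb5 exceeded Psmb11 by 6.64 ± 0.15 on the same log scale in every library (p = 0.125 in the exact permutation test).

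With the gene lengths used for TPM here, each of the 3 protease sites showed a different balance between the standard catalytic gene and its immunoproteasome counterpart. Psmb5, the chymotrypsin-like subunit, stood at 94.4, 105, 93.1 and 114 TPM (102 ± 10.05 TPM), below its counterpart Psmb8 at 160, 180, 181 and 171 TPM (173 ± 9.66 TPM). The ranges of these 2 genes did not overlap, and the log2(TPM + 1) difference was -0.76 ± 0.15 (p = 0.125, adjusted p = 0.15 in the exact permutation test). Psmb6, the caspase-like subunit, went the other way. It stood at 182, 182, 176 and 200 TPM (185 ± 10.7 TPM) against 74.9, 79.7, 91.5 and 69.8 TPM for Psmb9 (79.0 ± 9.26 TPM), a log2(TPM + 1) difference of 1.22 ± 0.24 with the same p. Psmb7, the trypsin-like subunit, and its counterpart Psmb10 overlapped, at 97.2, 100.7, 89.0 and 107 TPM for Psmb7 and 96.4, 106, 91.1 and 93.2 TPM for Psmb10. Their log2(TPM + 1) difference was 0.03 ± 0.12, with Psmb7 higher in 2 of 4 libraries (p = 0.875, adjusted p = 0.875 in the exact permutation test), so on this scale neither gene led.

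As a share of the summed TPM of each pair, Psmb8 made up 62.9%, 63.1%, 66.0% and 59.9% in replicates 1 to 4 (63.0% ± 2.51). Psmb9 made up 29.2%, 30.4%, 34.3% and 25.8% of its pair (29.9% ± 3.47). Psmb10 made up 49.8%, 51.2%, 50.6% and 46.5% (49.5% ± 2.09). Across the 3 sites together the immunoproteasome genes accounted for 47.0%, 48.5%, 50.4% and 44.2% (47.5% ± 2.63). All of these shares were lowest in replicate 4, and all but that of Psmb10 were highest in replicate 3. They also move with the gene length used. The counts cover every annotated exon of a gene, and when they were divided instead by the length of the principal transcript, no longer than the counted exons, the share of Psmb8 became 74.1%, that of Psmb9 33.0% and that of Psmb10 30.2%, with 43.3% over all sites. Under that length Psmb7 exceeded Psmb10 by 1.20 on the log2(TPM + 1) scale and Psmb6 exceeded Psmb9 by 1.02. The trypsin-like and caspase-like sites then showed a similar balance. Psmb8 above Psmb5 and Psmb6 above Psmb9 held under both lengths, whereas the even balance of Psmb7 and Psmb10 did not.

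**Figure D2:**
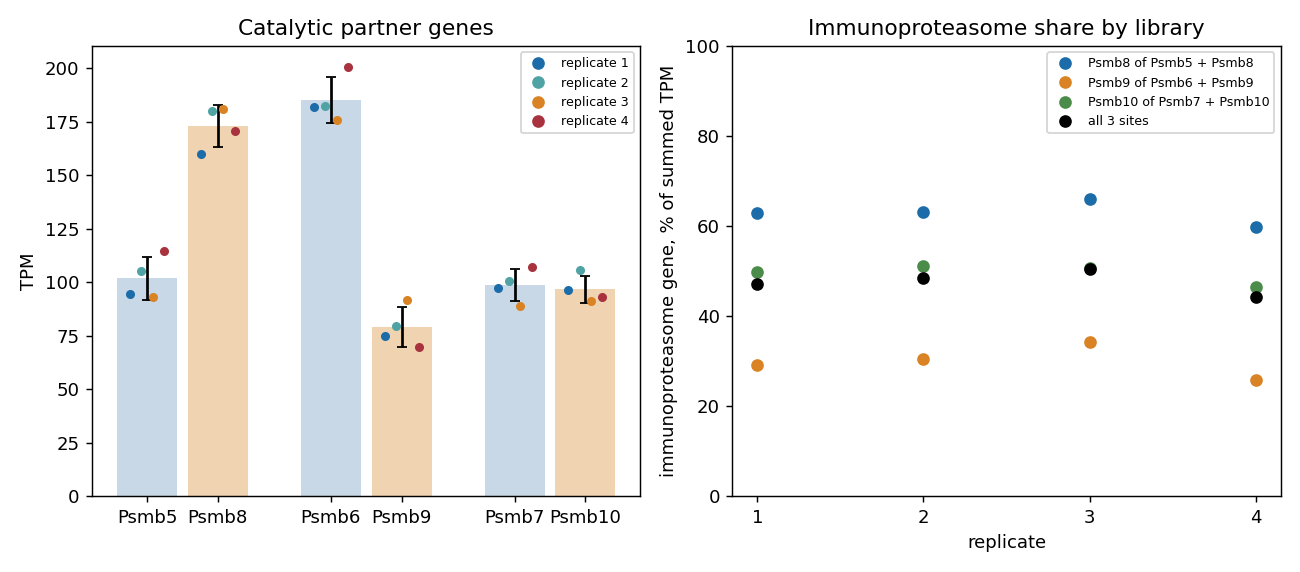
Left, TPM of each standard catalytic gene (blue bars) and its immunoproteasome counterpart (orange bars), as mean ± SD of 4 libraries with 1 point per library. Right, the immunoproteasome gene as a percent of the summed TPM of its pair in each replicate. Psmb8 lies above Psmb5 and Psmb9 below Psmb6 in every library, and each share is lowest in replicate 4.

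Psmb5 carries a further uncertainty, because 71.7% of its distinct stretches of 31 bases (31-mers) also occur in a transcript of another gene. The gene Mir686 also overlaps 12.5% of the counted exon bases of Psmb5 on the same strand. The closest copy of Psmb5, Gm3375, is a single-exon sequence on chromosome 7 (mm10, 3181093 to 3181888, plus strand), while Psmb5 lies on chromosome 14 (54614120 to 54617995, minus strand). The coding sequence of Psmb5 and Gm3375 matched at 787 of 795 aligned bases (99.0%). The following 150 bases, positions 268 to 417 of the coding sequence counted from its first base, are shown because they hold 4 of the differing bases, in capitals, and an unbroken identical run of 80 bases.
Psmb5: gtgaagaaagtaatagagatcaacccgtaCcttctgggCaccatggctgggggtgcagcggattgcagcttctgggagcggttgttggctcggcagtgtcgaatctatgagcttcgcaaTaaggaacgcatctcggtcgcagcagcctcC
Gm3375: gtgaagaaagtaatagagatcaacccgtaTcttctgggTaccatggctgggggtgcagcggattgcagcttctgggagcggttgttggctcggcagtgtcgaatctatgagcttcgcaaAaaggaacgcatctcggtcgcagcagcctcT
Gm3375 itself received 19 counts over the 4 libraries, against 3370 for Psmb5. A second copy, Psmb5-ps, received 0. No option for fragments with several alignments was recorded for the counting, so a fragment that lies wholly within such a run could not be assigned to either gene, and the level of Psmb5, and with it the Psmb8 share, is uncertain.

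The ATPase ring (Psmc1 to Psmc6), which unfolds substrates and threads them into the core, had the narrowest range of levels among the 6 roles. All 6 genes were expressed, with a median log2(TPM + 1) of 7.42 ± 0.05. Psmc6 led at 241, 225, 225 and 232 TPM (231 ± 7.70 TPM), followed by Psmc5 at 216, 210, 196 and 231 TPM (213 ± 14.8 TPM). Psmc2 was lowest at 81.7, 71.0, 73.2 and 87.8 TPM (78.4 ± 7.75 TPM), below Psmc3 at 138, 135, 129 and 142 TPM. The gap from Psmc6 to Psmc2 was 2.94-fold and the ranges of both genes were far apart. In TPM Psmc1, singled out after its values were seen, varied least of all members of 10 TPM or more. It stood at 212, 209, 208 and 210 TPM, a coefficient of variation of 0.803%, but 32.2% of its 31-mers occur in other genes. In log2 CPM it did not vary least, since it ran from 6.41 to 6.61 while Psmb3 ran from 4.97 to 5.05.

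The spread within the ring depended on gene length. The exons counted for Psmc2 add up to 5031 bases, while its principal transcript is 1785 bases long. Principal transcript length was limited to the counted exons, which are shorter for Psmc1 (1518 against 1591 bases) and Psmc6 (1564 against 2234). Divided by this limited length, the 6 genes lay between 142 TPM (Psmc1 and Psmc4) and 156 TPM (Psmc6), a range of 1.10-fold. Psmc2 stood at 149 ± 14.8 TPM. Without the limit the ring ran from 110 TPM (Psmc6) to 154 TPM (Psmc5), so the narrow range depends on the limit. The limited length was added after the values had been seen. Across the 44 genes at 1 TPM or more it moved 12 by over 1.5-fold. The ratio of counted to limited length ran from 1, the lowest that the limit allows, to 3.58 with a median of 1.62. Among the genes whose principal transcript exceeds the counted exons were Psma2 (2911 against 944 bases) and Psmb1 (1758 against 1036). The range from the highest to the lowest expressed gene went from 9.85-fold to 7.20-fold in the alpha ring, from 8.88-fold to 4.72-fold in the beta ring, from 4.47-fold to 3.84-fold in the rest of the regulatory particle, from 16.2-fold to 12.96-fold among activators and inhibitor, and from 13.6-fold to 4.85-fold among chaperones. It narrowed in all 6 roles, and the Spearman correlation between the levels under both lengths was 0.907 over 44 genes. Under principal lengths Psme1 and not Psma2 ranked highest, and Psma7 moved from rank 18 to rank 5.

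**Figure D3:**
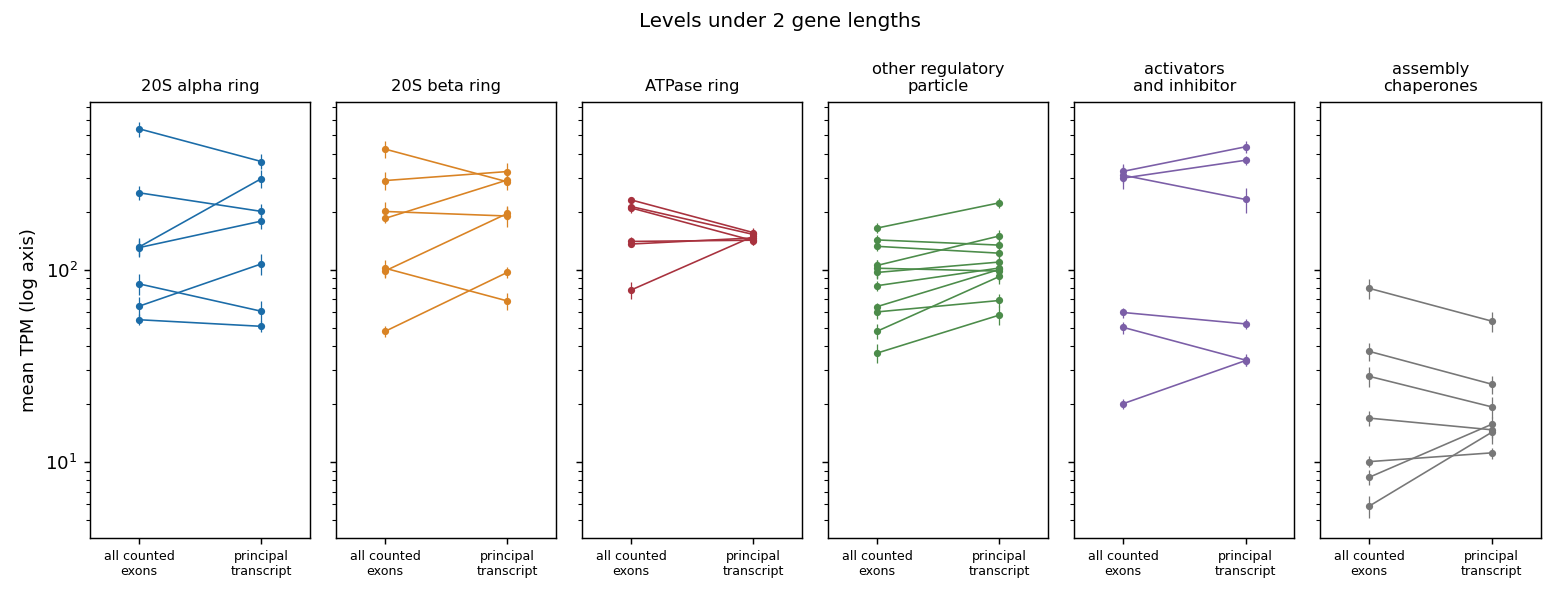
Mean TPM (log axis) of the 44 proteasome genes of at least 1 TPM. Counts were divided by the length of all counted exons (left of each panel) or of the principal transcript, limited to those exons (right). Lines join the same gene, error bars are SD over 4 libraries, and panels are roles. The 6 ATPase genes converge from a 2.94-fold to a 1.10-fold range under this limited length.

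The remaining regulatory particle genes, which encode the scaffold, the ubiquitin receptors and the lid that holds the deubiquitinase, were all expressed (11 of 11). Their median log2(TPM + 1) was 6.60 ± 0.11. Psmd8 and Psmd12, both lid subunits, were highest at 165 ± 9.51 and 143 ± 8.58 TPM. Psmd1, a large scaffold subunit, was lowest at 38.6, 34.2, 32.7 and 41.9 TPM (36.8 ± 4.18 TPM), next to the lid subunit Psmd11 at 47.9 ± 4.23 TPM. Psmd14, the deubiquitinase that removes ubiquitin from substrates, and Psmd7, its partner in the lid, were close to each other. Psmd14 was measured at 85.5, 77.0, 79.6 and 88.2 TPM and Psmd7 at 103, 96.4, 91.3 and 117 TPM. Psmd14 was lower in 4 of 4 libraries, by a log2(TPM + 1) difference of -0.29 ± 0.09 (p = 0.125, adjusted p = 0.15 in the exact permutation test), but with principal transcript lengths the difference was 0.06, so its direction is not settled.

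Among the activators, the PA28 genes stood next after Psma2 and Psmb1 in the whole ranking. Psme1 and Psme2, which encode the interferon-inducible PA28 alpha and beta subunits, stood at 351, 296, 321 and 332 TPM (325 ± 22.7 TPM) and at 318, 276, 299 and 306 TPM (300 ± 17.3 TPM). Psme1 exceeded Psme2 in 4 of 4 libraries by only 0.12 ± 0.02 on the log2(TPM + 1) scale (p = 0.125, exact permutation test), and both genes ranked the libraries in the same order. Psme3, the nuclear PA28 gamma subunit, stood at 358, 259, 285 and 339 TPM (310 ± 46.1 TPM). It was high in replicates 1 and 4 and low in replicates 2 and 3, and its range of 1.38-fold was the widest among members of 10 TPM or more. Psme1 and Psme3 overlapped, with Psme1 higher in 2 of 4 libraries and a difference of 0.08 ± 0.12 (p = 0.5, adjusted p = 0.545 in the exact permutation test). With principal transcript lengths the difference was 0.92, and without length division it was -0.34, so the even balance of these genes depends on the length used. Psme4, the activator PA200, was lower, at 64.4, 55.8, 59.8 and 59.6 TPM (59.9 ± 3.503 TPM), and Psme3 exceeded it by 2.34 ± 0.15 in 4 of 4 libraries. Psmf1, the PI31 protein first described as an inhibitor, was lowest at 19.4, 20.7, 18.8 and 21.4 TPM (20.1 ± 1.21 TPM). The role's median log2(TPM + 1) was 7.06 ± 0.10.

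Psme2b is a single-exon copy of the 8-exon gene Psme2. It lies on chromosome 11 (mm10, 48945354 to 48946190, minus strand) and Psme2 on chromosome 14 (55587441 to 55591113, minus strand). The coding sequences were identical at 715 of 720 bases (99.3%). Positions 394 to 543 of the coding sequence are shown because they hold 3 of the 5 differing bases, in capitals, after an identical run of 95 bases.
Psme2: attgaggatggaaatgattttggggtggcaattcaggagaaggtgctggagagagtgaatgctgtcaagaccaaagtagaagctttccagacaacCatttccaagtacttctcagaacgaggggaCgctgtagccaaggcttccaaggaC
Psme2b: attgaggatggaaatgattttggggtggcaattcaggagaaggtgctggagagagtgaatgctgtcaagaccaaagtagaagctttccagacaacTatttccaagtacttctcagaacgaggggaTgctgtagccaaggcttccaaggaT
Psme2b was counted at 46.9, 50.2, 55.0 and 48.2 TPM (50.1 ± 3.56 TPM), with 1588 counts over the 4 libraries against 20013 for Psme2. On the log2(TPM + 1) scale Psme2 exceeded it by 2.56 ± 0.15 in 4 of 4 libraries. Because 78.4% of the 31-mers of Psme2b and 33.5% of those of Psme2 occur in other genes, the counts of both are uncertain, and how many of the fragments placed on Psme2b came from Psme2 was not tested. In TPM Psme2b was highest in replicate 3, where Psme2 was in the middle of its range. In log2 CPM Psme2b was highest in replicate 2 (3.68, against 3.64 in replicate 3).

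The assembly chaperones, which guide ring formation and leave the finished particle, were lower than every other role, with a median log2(TPM + 1) of 4.16 ± 0.13. Psmg1 and Psmg2 form a pair that assembles the alpha ring, and Psmg3 and Psmg4 form another. Psmg4 was the highest chaperone at 84.99, 75.7, 69.1 and 90.2 TPM (79.99 ± 9.40 TPM) and its partner Psmg3 the lowest at 6.41, 5.60, 6.62 and 4.92 TPM (5.89 ± 0.780 TPM). Their difference on the log2(TPM + 1) scale was -3.56 ± 0.30 in 4 of 4 libraries, and -1.85 with principal transcript lengths. Psmg2 stood at 39.0, 33.9, 42.8 and 34.7 TPM (37.6 ± 4.11 TPM) and Psmg1 at 17.6, 15.3, 15.9 and 18.8 TPM (16.9 ± 1.57 TPM), so Psmg1 was lower by -1.11 ± 0.21 in 4 of 4 libraries. Both differences had p = 0.125 and adjusted p = 0.15 in the exact permutation test. The chaperones of the regulatory particle base were also low. Psmd10, known as gankyrin, stood at 28.9, 30.3, 22.7 and 29.5 TPM, lowest in replicate 3. Psmd5 stood at 10.03 ± 0.652 TPM and Psmd9 at 8.31 ± 0.762 TPM.

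Variation between the libraries was tested across all genes with edgeR, as the deviance of each gene's counts from 1 common level at the dispersion trend, with Benjamini-Hochberg adjustment. The trend was fitted to these same libraries, so a call means more variation than in genes of like abundance. A gene that is not called is therefore not shown to be stable. Of 11567 genes tested, 94 (0.813%) were called at an adjusted p under 0.05, and of the 44 proteasome genes tested 0 were. None of the 44 had an unadjusted p under 0.05, beside 692 (5.98%) of all genes, and DESeq2's dispersion trend and size factors also gave 0 calls and 0 unadjusted. Psmb2, a non-catalytic beta subunit, came closest, with an edgeR adjusted p = 0.999961. It stood at 213, 198, 168 and 225 TPM. Psma1 and Psma5, alpha subunits, were also among the 5 widest ranges of members of 10 TPM or more, at 66.5, 61.1, 56.1 and 74.6 TPM and at 95.2, 78.2, 72.9 and 91.3 TPM. These 3 genes were lowest in replicate 3. The level of Psma5 is uncertain, since 58.7% of its 31-mers occur in other genes. Without replicate 2, 2 of the 44 had an unadjusted p under 0.05, and the lowest adjusted p was 0.745, for Psmb2. Among the marker genes the Th17 cytokine gene Il17f was called (adjusted p = 0.0171 in edgeR), at 10.2, 7.04, 11.7 and 20.8 TPM.

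Although no single gene was called, most proteasome genes deviated in the same direction in a given library. Here each gene's log2 CPM (the count relative to the TMM-scaled library size) was taken minus its own mean over the 4 libraries. The median over the 44 genes was 0.06, -0.03, -0.20 and 0.17 in replicates 1 to 4, beside 0.01, 0.01, -0.00 and -0.00 over all genes tested. Without replicate 3 the medians of replicates 1, 2 and 4 were -0.01, -0.09 and 0.11, and without replicate 4 those of replicates 1 to 3 were 0.11, 0.03 and -0.13, so the small values of replicates 1 and 2 have no settled sign. In replicate 3, 40 of 44 proteasome genes lay below their own mean, and in replicate 4, 41 lay above it. The 40 genes that did both are 90.9% of the members, beside 38.3% of all genes tested and 53.3% of the 4417 protein coding genes of at least 30 TPM. This pattern was chosen after the values had been seen, the genes are not independent of each other, and it carries no p-value.

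The difference between replicates 4 and 3 shows its size. On the log2 CPM scale replicate 4 was higher for 40 of 44 genes, with a median difference of 0.36, a 1.28-fold difference. It was largest for Psmb2 at 0.61, followed by Psma1 at 0.60, Psmg4 at 0.57 and Psmd10 at 0.56. The exceptions were Psmg3 (-0.24), Psmg2 (-0.11), Psmb3 (-0.05) and Psme2b (-0.00). In TPM these genes and also Psma3, Psmd3, Psmd4, Psmd12 and Psme4 were higher in replicate 3. The members summed to 5525 TPM in replicate 3 and 6319 TPM in replicate 4. Summed TPM was lowest in replicate 3 for the alpha, beta and ATPase rings and the chaperones. For the other regulatory particle genes it was lowest in replicate 2 (961, against 1013 in replicate 3). The same held for activators and inhibitor (959 against 1039). By role, the median deviation in replicates 3 and 4 was -0.26 and 0.22 in the alpha ring, -0.26 and 0.19 in the beta ring, -0.18 and 0.15 in the ATPase ring, and -0.17 and 0.17 in the rest of the regulatory particle. It was -0.13 and 0.10 among activators and inhibitor and -0.20 and 0.16 among chaperones. On this scale all 7 expressed alpha genes, all 6 ATPase genes and all 11 other regulatory particle genes lay below their mean in replicate 3. All of these lay above it in replicate 4. In TPM this did not hold for Psma3, Psmd3, Psmd4, Psmd12 and Psmd13, which lay above their mean in replicate 3. The 3 immunoproteasome genes had a median of -0.05 and 0.02 in those libraries. Replicates 3 and 4 both carried Xist, so this difference lies within that pair of libraries.

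Other gene groups and measures of the libraries moved with it. The 84 ribosomal protein genes had median deviations of -0.01, 0.12, -0.27 and 0.17, with 84 of 84 below their mean in replicate 3 and 82 above it in replicate 4. The 12 mitochondrially encoded genes stood at -0.18 in replicate 3 and 0.14 in replicate 4, and took 1.98% and 2.40% of counts there. In the opposite direction, 184 lincRNA genes had a median of 0.22 in replicate 3 and -0.11 in replicate 4, and lincRNA took 0.639% of counts in replicate 3 against 0.377% to 0.394% in the other libraries. Malat1, an abundant nuclear RNA, stood at 427, 209, 795 and 188 TPM. Replicate 3 thus had the highest share of lincRNA and, in log2 CPM, the lowest median deviations of proteasome and ribosomal protein genes. The part of these differences in the proteasome result was not tested. Scaled by library totals alone, the medians of the 44 genes were -0.13 and 0.14 in replicates 3 and 4, beside 0.06 and -0.04 over all genes.

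**Figure D4:**
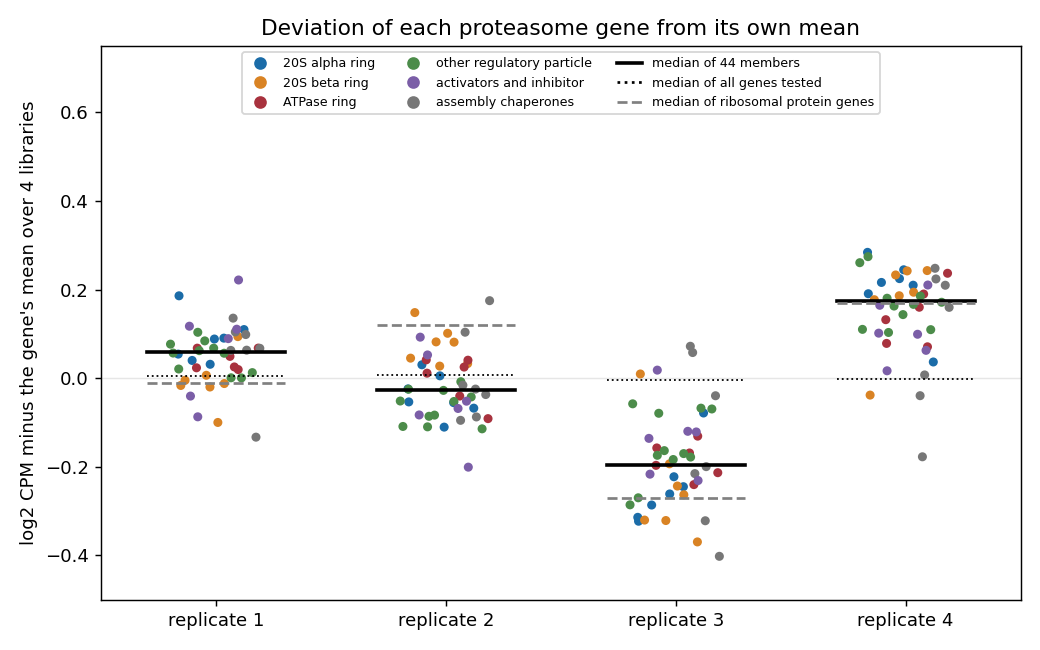
Deviation of the 44 tested proteasome genes from their own mean in log2 CPM, by library, with 1 point per gene coloured by role. Black lines are the medians of the 44 genes, dotted lines those of all 11567 genes tested and dashed lines those of 84 ribosomal protein genes. The proteasome median lies at -0.20 in replicate 3 and 0.17 in replicate 4.

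The promoters of these genes were searched for 6 motifs, since members deviated together. RefSeq windows (GRCm38.p6) from 250 bases before to 50 bases after a start were found for 38 of the 46 genes, 41 windows in all. Both strands were searched, and matches of different motifs could overlap. The motifs were chosen after the values were known. The ETS core CCGGAAG was in 15 of 41 windows (36.6%), beside 22.0% of 4499 windows of other coding genes of at least 30 TPM and 8.86% of all 32851 windows. The antioxidant response element core TGANNNNGC, a short pattern bound by the factors NRF1 and NRF2 that Nfe2l1 and Nfe2l2 encode, was in 56.1%, beside 43.3% and 41.3%. The GC box GGGCGG was in 56.1%, beside 65.8% and 35.7%, and CCAAT was in 31.7%, beside 36.2% and 37.4%. The E-box CACGTG was in 7.32%, beside 7.15% of all windows, and the heat shock element core GAANNTTC in 4.88%, beside 7.86% of all windows. A match is a description of the letters only.

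The 200 bases just before the first annotated exon are shown for 2 catalytic genes with the antioxidant response element core (or its reverse complement) and 3 ATPase genes with the ETS core (CCGGAAG, or CTTCCGG on the other strand), each match in capitals, read 5′ to 3′ along the gene. They are chr14:54617996-54618195 (minus strand) for Psmb5, chr11:70525157-70525356 (plus) for Psmb6, chr12:100109986-100110185 (plus) for Psmc1, chr5:21785075-21785274 (plus) for Psmc2 and chr14:45329624-45329823 (plus) for Psmc6, in GRCm38.p6 coordinates.
Psmb5: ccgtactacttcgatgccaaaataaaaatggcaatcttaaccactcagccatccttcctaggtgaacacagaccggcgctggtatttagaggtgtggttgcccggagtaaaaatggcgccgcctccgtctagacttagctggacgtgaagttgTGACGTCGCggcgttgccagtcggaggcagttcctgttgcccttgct
Psmb6: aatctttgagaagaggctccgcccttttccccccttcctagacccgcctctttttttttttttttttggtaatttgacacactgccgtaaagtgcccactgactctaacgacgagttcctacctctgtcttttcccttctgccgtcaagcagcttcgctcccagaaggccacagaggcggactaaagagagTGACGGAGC
Psmc1: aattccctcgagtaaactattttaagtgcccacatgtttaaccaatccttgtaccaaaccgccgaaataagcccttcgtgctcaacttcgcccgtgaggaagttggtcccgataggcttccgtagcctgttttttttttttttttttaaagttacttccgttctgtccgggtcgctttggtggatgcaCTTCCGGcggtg
Psmc2: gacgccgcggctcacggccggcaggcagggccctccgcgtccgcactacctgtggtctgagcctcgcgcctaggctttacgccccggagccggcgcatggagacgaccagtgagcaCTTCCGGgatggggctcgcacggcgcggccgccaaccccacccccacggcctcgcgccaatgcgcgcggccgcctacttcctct
Psmc6: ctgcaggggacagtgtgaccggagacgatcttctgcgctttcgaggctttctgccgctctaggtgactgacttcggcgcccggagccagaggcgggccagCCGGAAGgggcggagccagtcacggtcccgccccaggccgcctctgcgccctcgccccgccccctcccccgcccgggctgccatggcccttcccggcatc
In Psmb6 the element is the last stretch before the exon. The replicate 4 minus replicate 3 differences were 0.49 for Psmb5, 0.38 for Psmb6, 0.20 for Psmc1, 0.45 for Psmc2 and 0.24 for Psmc6. All were positive, as for 40 of the 44 genes tested. The median difference was 0.40 in members with the antioxidant response element core and 0.33 in those without it. For the ETS core it was 0.28 with and 0.38 without. Whether a motif goes with the difference was not tested.

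Genes that work with the proteasome were measured alongside it. Of 10 matched proteasome-associated genes without a Psm symbol, 10 were at 1 TPM or more (median 43.4 TPM). Txnl1, a thioredoxin-like protein bound to the regulatory particle, stood at 104 ± 8.70 TPM, Pomp, which is needed to assemble the core, at 57.7 ± 6.95 TPM, and Akirin2, which brings proteasomes into the nucleus, at 56.5 ± 4.98 TPM. The ubiquitin ligase Ube3c (17.8 ± 2.33 TPM) and the adaptor Ecpas (21.7 ± 3.80 TPM) were lowest. Among 7 genes for the transcription of proteasome genes, all were at 1 TPM or more, led by Nfe2l2 at 92.0 ± 8.74 TPM, Nfe2l1 at 78.9 ± 12.4 TPM and the CCAAT-binding subunit gene Nfyc at 57.4 ± 5.41 TPM. Ddi2, the protease that activates NRF1, stood at 23.3 ± 0.654 TPM and Ngly1, which removes its sugars, at 26.1 ± 1.44 TPM. Nfe2l1 stood at 83.0, 68.7, 69.3 and 94.7 TPM, highest in replicate 4 and low in replicates 2 and 3.

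All 14 ubiquitin and substrate delivery genes were at 1 TPM or more as well. The ubiquitin genes Rps27a and Ubb stood at 1077 ± 44.5 and 837 ± 67.3 TPM, and the activating enzyme gene Uba1 at 342 ± 32.0 TPM. The Vcp cofactor gene Ufd1 was among the lowest, at 37.2 ± 3.55 TPM. None of the genes in these 3 lists was called as varying between libraries in edgeR. Their median deviations in replicates 3 and 4 were -0.15 and 0.01 for the associated genes, -0.06 and 0.06 for the transcription list and -0.13 and 0.10 for the ubiquitin list. Whether these differ from the proteasome genes was not tested.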

How the data were processed

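Per the file headers, the authors counted read pairs as fragments over GENCODE mouse release M13 exons with featureCounts 1.4.6-p4, both ends mapped and strand option 2, on alignments whose names carry the STAR aligner (its version is not recorded there). Per the labels the build was mm10. The deposited values are raw counts per gene. The labels call the assay total RNA-seq, while the linked library protocol is named for poly(A)+ RNA, and the output names carry a tag of 2 hours that no source explains.

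Identifiers were matched to GENCODE M21 symbols (50376 matched, 224 not). TPM was computed from the counts and the deposited exon lengths, and pairs used log2(TPM + 1). Variation was tested with edgeR 4.0.16 (R 4.3.3) after its expression filter and TMM scaling, with an intercept only, the negative binomial deviance at the trended dispersion and 3 degrees of freedom. Log2 CPM used a prior count of 2. DESeq2 1.42.0 and Python 3.11.15 were also used. The expression filter kept 44 members; Psma8 and Psmb11 were not tested. No libraries held identical values, with a chi-square per degree of freedom of 15.3 (replicates 1 and 4) to 49.0 (replicates 2 and 3) between them. It was 39.0 between replicates 1 and 2 and 47.9 between replicates 3 and 4, so the Xist and Ddx3y pairs were not the most alike. In these libraries 3 counts, the limit that a count of 0 allows, are 0.0738 to 0.116 CPM, for counting error only. Coding sequences are the longest open reading frames of M21 transcripts.

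The members, lists, pairs and tests were chosen with earlier results of these data known. The genes named are the catalytic, activator, inhibitor and chaperone members, the highest and lowest 2 of each other role, the genes of the 12 pairs, the 5 widest ranges of at least 10 TPM, and of each pathway list the highest 3 and lowest 2, of which 1 gene is not reported here. Psmc1, Psmc4 and Psmd4 were named after their values were seen. Psmd5, Psmd9 and Psmd10 were placed among the chaperones by known function. Alternatives were other lengths, pseudocounts, scalings and filters, and leaving out each library.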

Additional observations from a re-analysis of the deposited data

Results flagged for a closer look

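Each set of 4 library values was checked for a sample far from the others, by the gap to the nearest value as a share of the range, against Dixon's critical value for 4 samples. Of 86 sets, 2 exceeded it, and chance exceeds it in about 1 of 20. Psmd12, a lid subunit, had a gap share of 0.868, with 149, 130, 147 and 146 TPM in replicates 1 to 4. Psmd4, a ubiquitin receptor of the regulatory particle, had a gap share of 0.898, with 109, 94.3, 110 and 108 TPM. In both genes replicate 2 was the low library in TPM. In log2 CPM replicate 3 lay near replicate 2, at 6.71 against 6.70 for Psmd12 and 6.38 against 6.32 for Psmd4. Neither was called as varying in edgeR (adjusted p = 0.999961 for each).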

How the results depend on the processing

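With other normalizations, filters and a pseudocount of 0.1 TPM, and with each library left out, the members called as varying stayed at 0, and the directions of the gene pairs held except as follows. Psmb7 minus Psmb10 was -0.030 to 0.060 with 1 library left out, negative without replicate 4 alone. Psme1 minus Psme3 was -0.34 without length division, and 0.92, with its sign kept, with either transcript length. Psmd14 minus Psmd7 was 0.021 without length division and 0.058 with the longest coding or the principal transcript length. For Psme1 with Psme3 and Psmd14 with Psmd7 the length was the only choice changed. Why Psmb7 minus Psmb10 changed sign was not tested. All genes called as varying numbered 35 to 60 with 1 library left out, against 94 (60, 39, 59 and 35 without replicates 1 to 4), where fewer samples were fitted.

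With another length the role medians moved by more than the spread of libraries, except that of the assembly chaperones (4.20 with the longest and 4.07 with the principal transcript, against 4.16). With the longest coding transcript they were 6.97 (alpha ring), 7.54 (beta ring), 7.27 (ATPase ring), 6.86 (other regulatory particle), 6.94 (activators and inhibitor) and 6.91 (all). With the principal transcript, in that order, they were 7.12, 7.60, 7.21, 6.72, 6.79 and 6.79. Over expressed genes alone the alpha and beta medians were 7.02 and 7.52. Immunoproteasome shares with the longest transcript were 74.7% for Psmb8, 30.2% for Psmb10 and 43.4% for all sites. With the principal transcript they were 74.1%, 30.2% and 43.3%. Without length division they were 84.2%, 32.9% and 54.5%, and 45.4% for Psmb9. The length is the only choice changed in these. No paired analysis was possible because there is 1 group.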
